A study of Macaca mulatta with 4 samples.

Results

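The genes described here make prostaglandins, prostacyclin and thromboxane, the prostanoids, and the set also holds the enzyme that starts their breakdown and the one that opens the neighbouring leukotriene branch. They were chosen by name as 10 symbols (PLA2G4A, PTGS1, PTGS2, PTGES, PTGES2, PTGES3, PTGIS, TBXAS1, HPGD and ALOX5), of which 9 matched a row among the 21314 rows of the table. PTGES, the inducible microsomal prostaglandin E synthase, matched no row with a symbol and was not analysed here. The samples were 4 libraries of RF/6A, an established chorioretinal line of the rhesus macaque (Macaca mulatta) bought from a commercial cell bank, grown in DMEM with heat-inactivated fetal bovine serum, penicillin and streptomycin. All 4 are titled Static, form a single group and differ by no stated genotype, treatment or time, and nothing in the labels says that they are separate cultures. The line was studied as a candidate endothelial model, and no sample labelled as endothelial, stimulated or flow-exposed was analysed here. Every level below thus comes from cells grown in serum with no stated stimulus, and there is no group to set it against.

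Prostanoid synthesis begins when cytosolic phospholipase A2 frees arachidonic acid from membrane lipids. The cyclooxygenases PTGS1 and PTGS2 turn it into prostaglandin H, and a terminal synthase then decides the product: prostaglandin E synthases make the inflammatory and pain mediator prostaglandin E2, PTGIS makes prostacyclin and TBXAS1 makes thromboxane. Prostacyclin relaxes vessels and restrains platelets, and it is a classical product of endothelium, although smooth muscle cells and fibroblasts make it too, whereas thromboxane comes mainly from platelets and macrophages and does the opposite.

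The libraries held between 20366946 and 20550610 estimated counts. Levels are given as counts-per-million (CPM) after TMM normalisation in edgeR, which scales libraries on the bulk of their genes, so that 1 count was worth between 0.0449 and 0.0617 CPM. Library 2 stood apart in composition: over the 12453 genes that averaged 1 CPM or more, its Pearson correlation of log2(CPM + 0.5) with another library was between 0.80 and 0.83, against 0.98 to 0.99 among the other 3, and ribosomal protein genes took 14.98% of its counts against 6.08% to 6.66%. Means with and without library 2 are therefore given for each member averaging 1 CPM or more. Markers of the line were checked from fixed lists, where 52.9% of all rows reached 1 CPM in every library. Of 7 matched epithelial and retinal pigment epithelium genes 6 reached it, and 5 with plain CPM, among them KRT18 at 1625 ± 1243 CPM (SD, n = 4; 3487 CPM in library 2). At a threshold of 2 CPM 3 of them did. KRT19 measured 44.9 ± 34.9 CPM, CDH1 6.80 ± 1.62 CPM and EPCAM 2.19 ± 0.733 CPM. Of the pigment epithelium genes, BEST1 measured 15.4 ± 11.6 CPM (1.48 CPM in library 2) and RPE65 1.45 ± 0.396 CPM. RLBP1 had 2 counts over the libraries. All 10 fibroblast and mesenchymal genes reached 1 CPM in every library, among them FN1 at 11099 ± 5330 CPM (SD, n = 4; 3228 CPM in library 2). Of 11 matched endothelial genes 2 did, the secreted factor EGFL7 at 10.7 ± 6.37 CPM and PECAM1 at 2.49 ± 0.636 CPM. KDR at 1.62 ± 0.896 CPM and ESAM at 1.56 ± 0.771 CPM reached 1 CPM in 3 libraries, and ERG in 2. The cadherin CDH5, at 0.601 ± 0.305 CPM, reached it in library 2 only (1.05 CPM). In that list 5 genes stayed below 1 CPM in every library, among them ROBO4 with no count.

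A member was called expressed when it had at least 1 CPM in every library. By this rule 5 of the 9 matched members were expressed (PLA2G4A, PTGS2, PTGES2, PTGES3 and PTGIS), beside 52.9% of all rows. HPGD reached 1 CPM in 3 libraries and PTGS1 in 1, ALOX5 and TBXAS1 in none. The arm to prostacyclin and the 2 matched prostaglandin E synthases thus reached 1 CPM in every library, the thromboxane and 5-lipoxygenase steps in none. Reads per gene also depend on transcript length, and no lengths were used here, so a higher CPM in one gene than in another stands for more reads and not for more molecules. The same holds where list genes are named by their CPM.

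PLA2G4A (ENSMMUG00000021423), the phospholipase that supplies arachidonic acid, measured 21.8, 14.0, 20.7 and 22.5 CPM in libraries 1 to 4, a mean of 19.8 ± 3.91 CPM (SD, n = 4). Library 2 was the low one, and the other 3 lay within 1.09-fold of each other. Without library 2 the mean was 21.7 ± 0.911 CPM (n = 3), a coefficient of variation of 4.20% where counting error alone gives 4.57%.

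Of the cyclooxygenases, PTGS2 (ENSMMUG00000016857), the inducible form that cytokines, growth factors and shear stress raise in many cells, measured 7.78, 4.26, 8.18 and 5.74 CPM in libraries 1 to 4, a mean of 6.49 ± 1.83 CPM (SD, n = 4) and 7.23 ± 1.31 CPM without library 2 (n = 3). Library 2 was again lowest, and library 4 lay between it and the rest. Counting error does not cover the whole range, since the exact 95% Poisson interval was 7.03 to 9.45 CPM in library 3 and 4.79 to 6.83 CPM in library 4. PTGS1 (ENSMMUG00000012886), the constitutive form found in platelets, stomach and many resting tissues, had 13, 6, 14 and 27 counts, or 0.591, 0.370, 0.629 and 1.22 CPM. Its coefficient of variation over the libraries was 51.8%, where counting error alone gives 26.5%. The farthest apart were library 2, with an exact 95% Poisson interval of 0.136 to 0.806 CPM, and library 4, with 0.805 to 1.78 CPM. Summed over the libraries PTGS1 had 60 counts, or 0.727 CPM with an exact 95% Poisson interval of 0.555 to 0.935 CPM, which stays under the 1 CPM threshold for counting error alone.

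Among the terminal synthases of prostaglandin E2, PTGES3 (ENSMMUG00000013766), the cytosolic form that is also p23, a co-chaperone of HSP90, measured 295.6, 179.9, 306.4 and 294.3 CPM in libraries 1 to 4. The mean was 269 ± 59.6 CPM (SD, n = 4), and 299 ± 6.61 CPM without library 2 (n = 3). PTGES2 (ENSMMUG00000018258), the membrane-associated form, went the other way, with 29.9, 64.6, 29.4 and 33.4 CPM, a mean of 39.3 ± 16.9 CPM and 30.9 ± 2.18 CPM without library 2. In library 2 PTGES3 was thus the lowest of the 4 values and PTGES2 the highest, and neither overlapped the range of the other 3 libraries. PTGES3 has processed copies in primate genomes, and the estimation method can share reads among near-identical transcripts, so its level is uncertain beyond counting error. HSP90AB1, the chaperone that p23 serves, measured 13.1 ± 4.63 CPM, and it too has close relatives and copies.

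PTGIS (ENSMMUG00000021692), the prostacyclin synthase and a member of the cytochrome P450 family, measured 70.4, 15.4, 71.5 and 70.6 CPM in libraries 1 to 4, a mean of 57.0 ± 27.7 CPM (SD, n = 4). Libraries 1, 3 and 4 lay within 1.02-fold of each other. Their mean of 70.8 ± 0.599 CPM has a coefficient of variation of 0.845%, below the 2.53% that counting error gives at about this many reads, and the median of the 3 was 4.60-fold above library 2. Markers of cells known to make prostacyclin stood beside it as follows. Of the smooth muscle and pericyte list 7 of 8 genes were expressed, beside 52.9% of all rows. Among them were TAGLN at 392 ± 249 CPM (764 CPM in library 2), CSPG4 at 52.2 ± 12.1 CPM and MCAM at 35.9 ± 9.78 CPM. The rest of the list had fewer reads. ACTA2 measured 8.20 ± 5.47 CPM, DES 5.37 ± 2.80 CPM, RGS5 3.41 ± 1.37 CPM, MYH11 1.62 ± 0.388 CPM and CNN1, the gene not expressed, 0.0451 ± 0.0635 CPM. At a threshold of 2 CPM 5 genes of the list were expressed. The list had a summed level of 363 to 416 CPM in libraries 1, 3 and 4 and 850 CPM in library 2. TAGLN made up most of the sum in library 2, where 3 of the 8 genes were lowest and 4 highest. The fibroblast list summed to between 41186 and 46586 CPM, highest in library 2, but with plain CPM library 2 was lowest, at 36962 CPM against 44702 to 46146 CPM (a scaling of these sums added after the data were seen), and 6 of its 10 genes were lowest in library 2 with TMM and 7 with plain CPM. The endothelial list summed to between 14.8 and 27.4 CPM, mostly from EGFL7 in library 2 (19.9 CPM), where 3 of its 11 genes were lowest and 4 highest. The share of all genes lowest or highest in library 2 is not given here, so these counts describe the lists only. The part of these cell types in the PTGIS level was not tested. In a bulk sample fewer cells of a type and less RNA per cell cannot be told apart.

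TBXAS1 (ENSMMUG00000004222), the thromboxane synthase, had no count in any library. A count of 0 allows up to 3 counts over the 4 libraries, or 0.0363 CPM, and the exact 95% Poisson limit was 0.0447 CPM, both for counting error only. ALOX5 (ENSMMUG00000013434), the 5-lipoxygenase that commits arachidonic acid to leukotrienes in leukocytes, had 0, 2, 1 and 0 counts, or 0.0363 CPM over the libraries with an exact 95% Poisson interval of 0.00749 to 0.106 CPM. Thromboxane comes mainly from platelets and macrophages and ALOX5 acts in leukocytes, and the marker lists of these cells are given next. In those lists PTPRC, the common leukocyte antigen, measured 0.171 ± 0.0240 CPM (SD, n = 4), and ITGAM had no count. The lists were not empty, however: 4 of 11 leukocyte and macrophage genes were expressed, beside 52.9% of all rows. Among them were LCP1, a plastin of blood and transformed cells, at 151 ± 36.4 CPM and the integrin chain ITGB2 at 105 ± 4.15 CPM. Of 6 matched platelet genes 1 was expressed, TUBB1 at 444 ± 204 CPM, a beta tubulin with close relatives whose reads may be shared. The only expressed mast cell gene of 3 matched was CPA3 at 1.65 ± 0.700 CPM.

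HPGD (ENSMMUG00000020408), the dehydrogenase that inactivates prostaglandins, measured 3.28, 0.617, 3.23 and 1.63 CPM in libraries 1 to 4, from 72, 10, 72 and 36 counts. The mean was 2.19 ± 1.30 CPM (SD, n = 4), and 2.71 ± 0.940 CPM without library 2 (n = 3). Libraries 1 and 3 agreed within counting error and library 4 was lower by more than counting error, with an exact 95% Poisson interval of 1.14 to 2.25 CPM against 2.53 to 4.07 CPM in library 3. HPGD was therefore the member for which libraries other than 2 differed most on a fold scale among those averaging 1 CPM or more, at 2.01-fold.

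Library 2 was lower than each other library for 5 of the 6 members that averaged 1 CPM or more, and higher for 1, PTGES2. The share of all genes lowest or highest in library 2 is not given here, so these counts are no result about the members. On the log2(CPM + 0.5) scale its difference from the median of libraries 1, 3 and 4 was -2.17 for PTGIS, -1.74 for HPGD, -0.80 for PTGS2, -0.71 for PTGES3, -0.62 for PLA2G4A and 1.10 for PTGES2, where the median over all 12453 genes was -0.07. Dixon's gap test, which asks whether 1 of 4 values lies apart from the other 3, found library 2 apart and low for 2 of the 6 members (PTGIS and PTGES3), beside 21.5% of all genes, and apart and high for PTGES2 alone, beside 14.7%. Counts of 2 and 1 among 6 genes lie near these backgrounds and are no result about the members as a group. No other library was apart for any of them. The direction of each difference held with plain CPM, where the median of all genes moved to -0.49 and PTGES2, at 0.66, was no longer apart by the test, while PLA2G4A, at -1.05, became so. The split of all library 2 calls depended on the scale: 59.5% of them were low here, 80.7% with plain CPM, and 33.96% with TMM but no log.

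**Figure D1:**
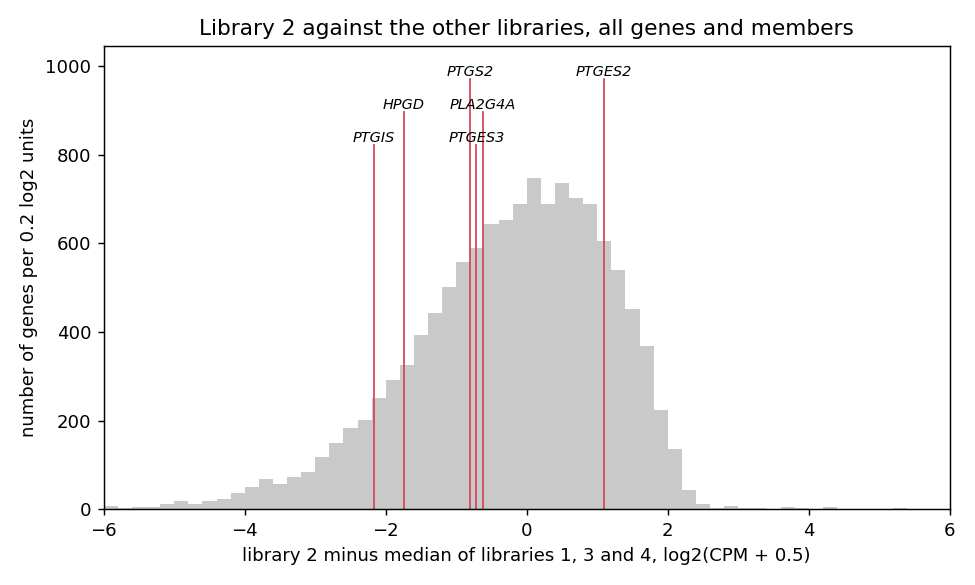
Grey bars count genes by the difference of library 2 from the median of libraries 1, 3 and 4 in log2(CPM + 0.5), for genes averaging 1 CPM or more and differences within 6 log2 units, and red lines mark the 6 members with such a mean. PTGIS at -2.17 and HPGD at -1.74 lie in the lower flank, PTGES2 at 1.10 in the upper one.

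A ratio of 2 genes within a library needs no scaling, and these ratios were compared between libraries only. Transcript length cancels in that comparison if each gene's transcripts have the same length in every library. That was assumed and not checked, since no lengths were used. PTGES3 had 9.89, 2.79, 10.4 and 8.81 counts for each count of PTGES2 in libraries 1 to 4. Its exact 95% interval in library 2, 2.60 to 2.99, lay below those of the others, of which the lowest began at 8.16. For PTGIS to PTGES2, a pair chosen after the values were seen, the ratios were 2.35, 0.238, 2.43 and 2.11, so the libraries other than 2 lay within 1.15-fold of each other and at least 8.89-fold above it. Since PTGIS was low and PTGES2 high in library 2, the choice of this pair fixed that difference, and it is given as a description. PTGS2 to PTGS1 behaved differently: the ratios were 13.2, 11.5, 13.0 and 4.70, with library 2 inside the range of the rest and library 4 lowest. The interval of library 4, 3.09 to 7.42, lay below those of library 1 (7.49 to 25.2) and library 3 (7.55 to 24.3) and overlapped the 5.02 to 32.4 of library 2. PTGS2 to HPGD, the ratio of a synthesis to a breakdown step, was 2.38, 6.90, 2.53 and 3.53, highest in library 2, where it rested on 10 HPGD counts. The interval of library 2, 3.54 to 15.02, lay above those of library 1 (1.79 to 3.17) and library 3 (1.91 to 3.37) and overlapped that of library 4, 2.42 to 5.26.

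**Figure D2:**
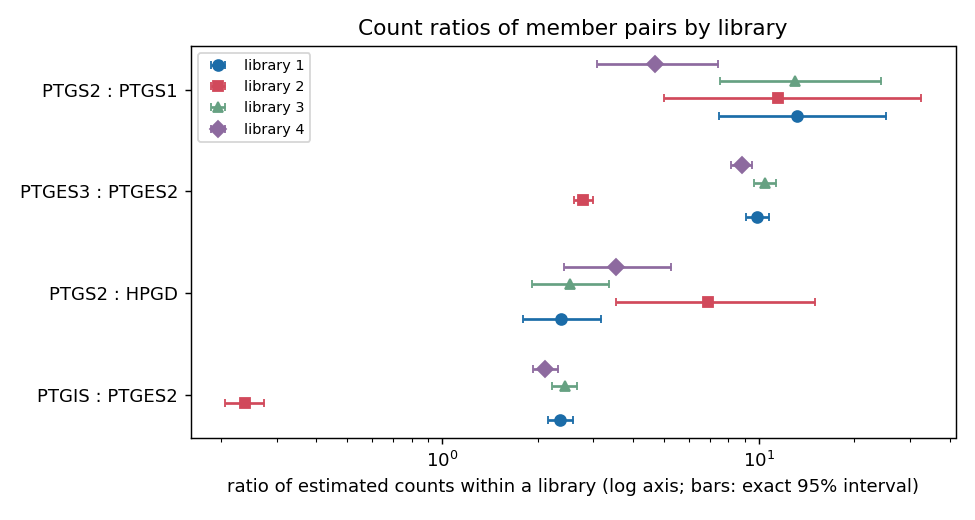
Points are ratios of estimated counts of 2 members within each library on a log axis, and bars are exact 95% binomial intervals, which cover counting error only. Library 2 stands left of the others for PTGES3 to PTGES2 (2.79) and PTGIS to PTGES2 (0.238), but within their range for PTGS2 to PTGS1 (11.5).

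Among phospholipases A2 outside the members, 5 of 12 matched genes of 19 listed were expressed, beside the 52.9% of all rows, among them PLA2G4B at 26.4 ± 10.8 CPM (SD, n = 4), the calcium-independent PLA2G6 at 17.8 ± 7.26 CPM and PLAAT3 at 10.3 ± 5.41 CPM, and PLA2G2A, the secreted form of inflammatory fluids, had no count. All 12 matched genes of arachidonate supply and re-esterification were expressed. The long-chain acyl-CoA synthetases ACSL3 and ACSL4, the latter with a preference for arachidonate, measured 423 ± 103 and 117 ± 35.7 CPM, and the delta-5 desaturase FADS1 measured 338 ± 65.3 CPM. Dixon's test found 4 of these 12 genes apart and low in library 2, beside 21.5% of all genes. The elongase ELOVL5 had 28.3 CPM there against 117 to 143 CPM elsewhere, and FADS2, the delta-6 desaturase, 1.42 CPM against 7.68 to 9.24 CPM (both named after their values were seen).

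Of other enzymes that take prostaglandin H onward, 4 of 7 listed genes matched and 2 of these were expressed, a share near the background, AKR1B1, an aldose reductase with prostaglandin F synthase activity, at 62.7 ± 23.7 CPM (SD, n = 4; 98.2 CPM in library 2) and the carbonyl reductase CBR1 at 34.2 ± 13.9 CPM. PRXL2B, another prostaglandin F synthase, measured 0.894 ± 0.301 CPM, and HPGDS, the haematopoietic prostaglandin D synthase, had no count. In the list of transport and later breakdown 4 of 7 genes were expressed, beside 52.9% of all rows. Among them were the reductases PTGR2 at 54.5 ± 3.80 CPM, PTGR1 at 45.2 ± 21.8 CPM (77.7 CPM in library 2) and PTGR3 at 16.8 ± 1.57 CPM. Of the transporters, SLCO2A1, which carries prostaglandins into cells for breakdown, had no count, and ABCC4, which exports prostaglandin E2, measured 7.92, 0.679, 9.34 and 6.87 CPM, low in library 2 and expressed in the other 3 (both named after their values were seen).

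Of the 8 matched G protein coupled prostanoid receptors 3 were expressed, beside 52.9% of all rows. They were the prostaglandin E2 receptors PTGER4 at 3.72 ± 1.05 CPM (SD, n = 4) and PTGER2 at 2.81 ± 0.405 CPM, both coupled to cyclic AMP, and the thromboxane receptor TBXA2R at 1.98 ± 0.885 CPM. PTGIR, the receptor for prostacyclin, had 11, 8, 9 and 7 counts, or 0.429 ± 0.0866 CPM, below 1 CPM in every library although PTGIS was expressed in all of them. The prostaglandin F receptor PTGFR had 14, 4, 66 and 14 counts, so its mean of 1.12 ± 1.24 CPM rested on library 3 at 2.97 CPM. PTGER1 measured 0.169 ± 0.218 CPM (0.493 CPM in library 2), PTGDR 0.0567 ± 0.0679 CPM, and PTGER3 had a single count, in library 4. PTGFRN, a membrane protein named as a negative regulator of PTGFR and not itself a receptor, measured 63.7, 5.55, 67.3 and 56.7 CPM.

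**Figure D3:**
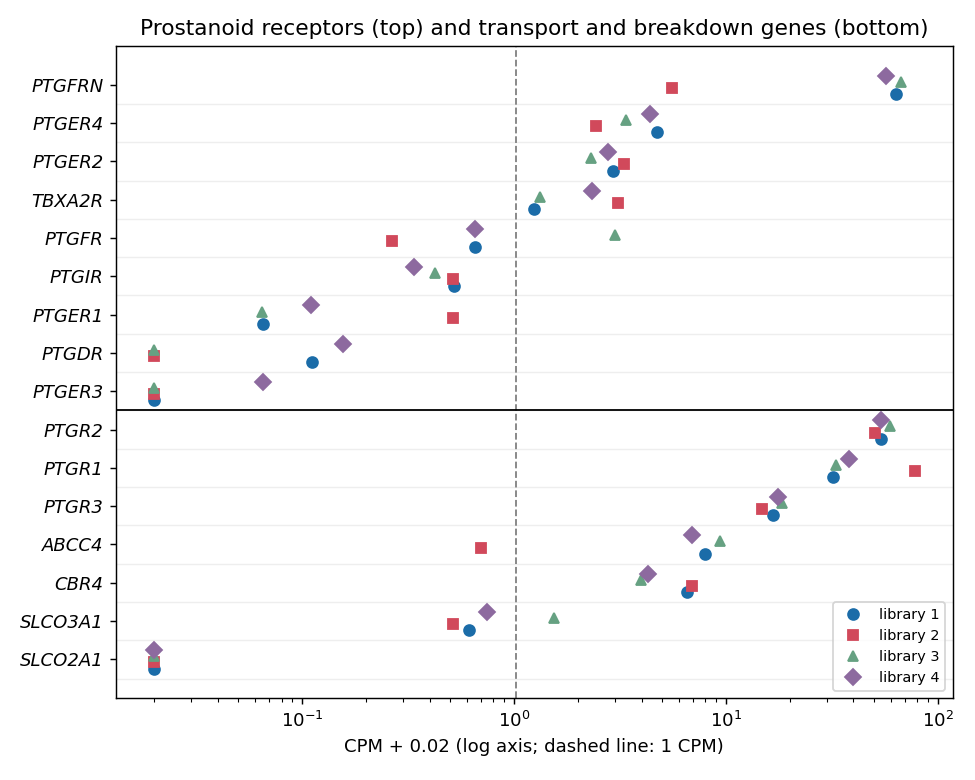
Points are levels in each library as CPM + 0.02 on a log axis for 9 receptor-list genes (above the black line) and 7 transport and breakdown genes (below it), with a dashed line at 1 CPM. PTGER4, PTGER2 and TBXA2R lie right of the line in every library and PTGIR left of it, and PTGFRN and ABCC4 are lowest in library 2.

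In the lipoxygenase and leukotriene list 6 of 16 matched genes were expressed, beside 52.9% of all rows. Among them were LTA4H, the leukotriene A4 hydrolase, at 135 ± 52.7 CPM (SD, n = 4; 214 CPM in library 2), and the microsomal glutathione transferases MGST3 at 56.2 ± 19.6 CPM and MGST2 at 8.92 ± 4.63 CPM. ALOX5AP, which presents arachidonate to ALOX5, had 1, 3, 0 and 5 counts, and LTC4S and the receptor CYSLTR1 had none (these 3 were named after their values were seen). Of the epoxygenase branch 3 of 5 matched genes were expressed, beside the same 52.9%. They were the epoxide hydrolases EPHX1 at 49.1 ± 23.1 CPM (83.6 CPM in library 2) and EPHX2 at 4.47 ± 1.49 CPM and the epoxygenase CYP2J2 at 10.99 ± 1.61 CPM.

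Of 18 matched genes that induce, restrain or couple to the cyclooxygenase step, 15 were expressed, beside 52.9% of all rows. ANXA1, a glucocorticoid-induced protein known to restrain phospholipase A2, measured 904 ± 148 CPM (SD, n = 4; 1126 CPM in library 2), CSNK2A1, a casein kinase subunit that acts on p23, 281 ± 36.3 CPM and TNFRSF1A, the receptor for tumour necrosis factor, 158 ± 41.4 CPM. Members of this list were also low in library 2. NR3C1, the glucocorticoid receptor, which holds down PTGS2, measured 78.6, 2.78, 70.7 and 56.2 CPM, the interleukin-1 receptor IL1R1 5.50, 0.493, 7.64 and 4.16 CPM, and CAV1, the caveolae coat protein, 146, 23.4, 162 and 163 CPM (all named after their values were seen).

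The median of the 9 matched members, TBXAS1 with no count included, was 2.76 ± 0.40 log2(CPM + 0.5) (SD, n = 4). It was 1.85 ± 0.21 over all 21314 rows and 3.13 ± 0.22 over the 17534 rows that had any count, so it lay between them. The list median was 0.30 ± 0.38 for the receptor list and 4.69 ± 0.14 for arachidonate supply. These medians are not corrected for transcript length and describe the libraries only.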

How the data were processed

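Total RNA of 4 RF/6A libraries was sequenced on a BGISEQ-500, per the labels. The authors deposited estimated counts per Ensembl rhesus gene as whole numbers. Salmon and DESeq2 are named without versions or roles, per the submitters' processing notes. For the build, annotation and strandedness nothing was given in the sources used. If Salmon made the counts, which is not stated, it shares reads among near-identical transcripts. Genes with copies can then carry an error that intervals do not cover.

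Symbols came from a table of Ensembl identifiers, which named 14654 of 21314 rows. Rows without a symbol held 13.05% to 21.7% of a library's counts and were kept for scaling. CPM used TMM in edgeR 4.0.16 (R 4.3.3), with factors from all rows. Means and SDs given without library 2 keep this scaling. Poisson and binomial intervals (exact, 95%) and the floor of 3 counts cover counting error only. Where libraries are not separate cultures, SDs show technical spread. Dixon's test (critical value 0.829 for 4 samples) ran on log2(CPM + 0.5) over genes averaging 1 CPM or more. In 4 simulated libraries it found 29% of 100 genes raised 2-fold and 76% of 100 raised 4-fold, and called 4.89% of 12220 unchanged genes. The spread between simulated libraries beyond counting error was the same assumed value for every gene. It was not estimated from these libraries, and the rates depend on it. All simulated libraries shared the mean composition of the libraries other than 2. Genes were raised in a single library and none lowered, and those of lowest level were not used. The rates therefore do not describe a library of shifted composition such as library 2.

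Of 7 planned comparisons of level between members per kilobase, none was made, since the tables used here hold no transcript or protein lengths. The 5 with both genes matched are given as count ratios across libraries, or as counts. The named genes were the 9 matched members, the 3 highest of each pathway list, every receptor and the highest gene of each cell type list. Others were named after their values were seen. Members and lists were chosen with earlier results of these data known. The alternatives were plain CPM, DESeq2 1.42.0 size factors, TMM on genes kept by filterByExpr (minimum count 10), thresholds of 0.5 and 2 CPM, pseudocounts of 0.1 and 1, CPM without log, and leaving out each library.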

Additional observations from a re-analysis of the deposited data

Results flagged for a closer look

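Dixon's gap test was tallied over 47 named genes averaging 1 CPM or more. Left out were the markers PECAM1, KDR, ESAM, CSPG4, DES, RGS5, MYH11, KRT19, CDH1, EPCAM, BEST1 and RPE65, for which no library was apart. The markers ACTA2 and MCAM were also left out, with library 2 apart and high for ACTA2 and apart and low for MCAM. The test singled out a library for 18 of the 47 genes, beside 36.9% of all genes averaging as much. The named genes thus lie near that share. Chance alone would give about 1 in 20, the flags are not independent since they mostly share library 2, and some of these genes were named for their values. Library 2 was that library in 17, low in 11 and high in 6.

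Library 2 was apart and low, in CPM, for the members PTGIS (15.4) and PTGES3 (179.9), for the fatty acid genes ACSL3 (271), ACSL4 (64.3), ELOVL5 (28.3) and FADS2 (1.42), for PTGFRN (5.55) and the exporter ABCC4 (0.679), and for NR3C1 (2.78), CAV1 (23.4) and FN1 (3228). It was apart and high for the member PTGES2 (64.6), for AKR1B1 (98.2), LTA4H (214), EPHX1 (83.6) and ANXA1 (1126), and for KRT18 (3487), a keratin of the epithelial list.

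The remaining flag was in library 4. PLA2G1B, the pancreatic secreted phospholipase A2, had 90 counts there, or 4.07 CPM, and no count in libraries 1, 2 and 3. It was named after its values were seen.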

How the results depend on the processing

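Of 257 recomputed values 251 stayed within the spread between libraries or, for counts of genes, within 1.5 times. On a fixed scaling, leaving out 1 of 4 libraries cannot move a mean by more than their SD. For levels and pairs that part of the count was thus largely set in advance and is no measure of robustness. PTGIS moved from 57.0 to 76.5 CPM without library 2, with scaling redone, and still counted as within the spread. The number of expressed members was 5 under each scaling and at 2 CPM, 6 at 0.5 CPM and 5 to 6 when a library was left out, with HPGD added without library 2 or at 0.5 CPM. The number of members with a library apart was 3 or 4, the latter with DESeq2 size factors. On the log2 scale the difference in counts moved with the pseudocount where 1 gene was near 0: with 0.1 in place of 0.5 it was 3.09 for PTGS2 minus PTGS1 (2.54 with 0.5), 8.92 for PTGIS minus TBXAS1 (6.61) and 5.57 for PTGS2 minus ALOX5 (3.65), and with 1 it was 2.81 for the last. At 2 CPM the mast cell list had 0 expressed genes and the epithelial list 3, of 1 and 6. Division by length was not run, and neither were the PTGES pairs. No paired analysis was possible because the series has 1 group. Depth limits ALOX5, TBXAS1, PTGER1, PTGER3 and PTGDR most, where few counts or none set the level. It also limits PTGS1 (60 counts over the libraries), PTGIR (35), PTGFR (98) and HPGD in library 2 (10 counts). TBXA2R, PTGER2 and PTGER4 had 157, 229 and 315 counts over the libraries.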
